A study of Rattus norvegicus with 12 samples.

Results

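Rat cortical cultures given extracellular vesicles (EV) were compared directly with cultures given the 3-100 kDa proteins, both obtained from the secretome of glial progenitor cells that had been derived from human induced pluripotent stem cells. EV here names the treated rat cultures, not the vesicles' own RNA. The members are the 6 libraries that the labels assign to these treatments, 3 for each, out of 12 libraries in the series. The cultures were primary neuroglial cultures of the cerebral cortex of newborn Wistar rats, kept for 10 days in vitro before treatment, and RNA was collected 4 h later. EV were added at 10 µg/mL and the 3-100 kDa proteins at 15 µg/mL, so that the dose differed together with the fraction and the effects of the 2 cannot be told apart. The EV were pelleted and washed by ultracentrifugation, and the preparation of the protein fraction is not given in the sources used here. The other 6 libraries came from intact control cultures (IC, nothing added) and from cultures that received the total secretome (45 µg/mL). They are used only to give the level of each gene beside the comparison. No label states that replicates came from separate cultures or animals. The study's methods say in general that its experiments were repeated on unrelated cultures but do not tie this to these libraries, so p-values measure the spread between these libraries, part of which may be technical.

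Growth factors, cytokines and depolarisation act on neurons and astrocytes through receptors that switch on the MAP kinases ERK1/2. ERK induces the immediate early genes, which need no new protein for their transcription and mostly encode transcription factors such as EGR and the FOS and JUN partners of AP-1. These factors then raise delayed genes, among them secreted neuropeptides, ligands, proteases and the phosphatases and Sprouty proteins that switch ERK off again. In rodent neurons, Vgf and Scg2 are classical secreted targets of this response, and Plau, Tnfrsf12a and Cd44 are genes of activated glia and of cells that remodel their surroundings.

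The values are in TPM, a share of all transcripts corrected for length, and the read depth behind them is unknown. Differences are given as EV minus proteins on the log2(TPM + 1) scale with the standard error from limma (n = 3 libraries per group), which understates the change of low genes. Of 12751 genes tested, 63 were lower and 5 were higher in EV than in the 3-100 kDa proteins at an adjusted p under 0.05, which is 0.494% and 0.0392% of the genes tested. The EV and protein libraries did not overlap for any of these 68 genes. Over all genes tested this held for 6.78% with EV lower and 7.4% with EV higher. The filter on low values asked for 1 TPM in 3 libraries, and 9 of the lower genes reached it in no EV library and 1 of the higher genes in no protein library, so that these 10 passed it only through the group where they were high. The 63 lower genes differed by a median of −1.59. Without overlap they were bound to be lower in all 3 pairs of libraries with the same number. When the replicate number was added as a block, 272 genes were lower and 69 higher, 2.13% and 0.541% of the genes tested, and all 68 genes were among these 341. Of these, 21 lower genes and 1 higher gene passed the filter only through the group where they were high. By the looser rule of an unadjusted p under 0.05 and a fold over 1.5 without the block, 454 genes were lower and 201 higher (3.56% and 1.58%). The median difference over all genes tested was 0.0145, a value that the scaling holds near 0, and 0.0386 on TPM without rescaling.

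The count without the block rested on few libraries. Without EV replicate 1 it was 72 genes, but it was 2 without EV replicate 2, 6 without EV replicate 3, 22 without proteins replicate 1, 5 without proteins replicate 2 and 6 without proteins replicate 3. Every one of the 68 genes that could still be tested kept its direction in each of these fits. This follows from the lack of overlap between the groups and adds no support. Most calls of the genes named below were lost in most of these fits. With the block, leaving out both libraries of replicate 1, 2 or 3 gave 422, 203 and 268 genes. The first principal component of the 500 most variable genes held 30.5% of the variance, with the EV libraries at 24.94, 8.05 and 1.11 and the protein libraries at 0.24, −15.16 and −19.19, so EV replicate 1 stood farthest from the rest.

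**Figure D1:**
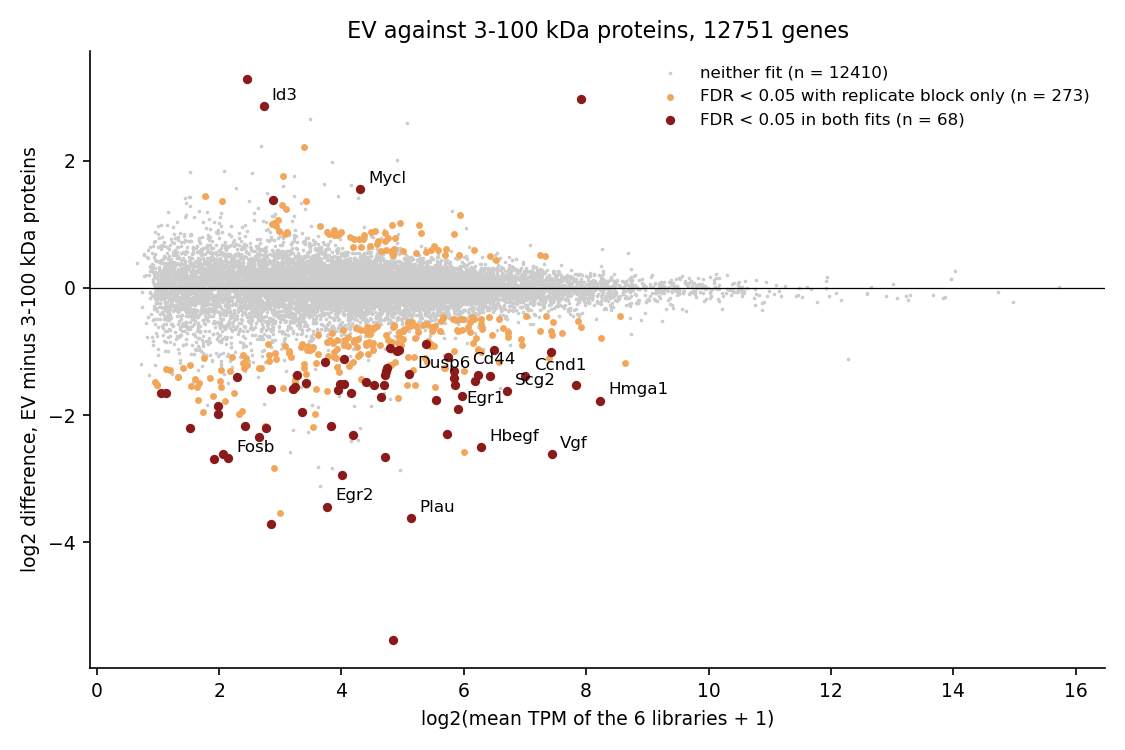
Each point is 1 of 12751 genes, with the log2 of the mean TPM of the 6 libraries + 1 on the x axis and the log2 difference, EV minus 3-100 kDa proteins, on the y axis. Dark points are the 68 genes with an adjusted p under 0.05 in both fits (63 below 0 and 5 above) and orange points the 273 more that passed only with the replicate block.

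The labelled tissue was checked against markers of the cells it could hold. The 8 neuronal markers summed to between 3558 and 3875 TPM in EV and between 3123 and 3708 TPM in the protein libraries, and the 7 astrocyte markers to between 1200 and 1626 TPM and between 1183 and 1535 TPM. The 8 markers of the oligodendrocyte lineage summed to between 192.8 and 231.7 TPM in EV and between 124.1 and 189.5 TPM after proteins, ranges that do not overlap, and 1 of the 7 tested, Olig1, was higher with the block. Without Olig1 the sums overlapped, at 108, 140.2 and 118 TPM in EV against 118, 139 and 76.7 TPM after proteins. Markers of microglia, endothelial cells, fibroblasts and pericytes, and red blood cells summed to at most 4.095 TPM in any of the 6 libraries, and the microglial marker P2ry12 was listed at 0 in all 6. The endothelial sum was higher after proteins, at 0.639 to 0.7575 TPM against 0.07509 to 0.5997 TPM, with Cldn5, Cdh5 and Tek listed at 0 in all EV libraries. The part of these lists in the differences that follow was not tested. None of the neuronal, astrocyte, microglial, fibroblast or red blood cell markers tested passed either fit. In such bulk RNA, fewer cells of a type and less RNA per cell cannot be told apart.

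**Figure D2:**
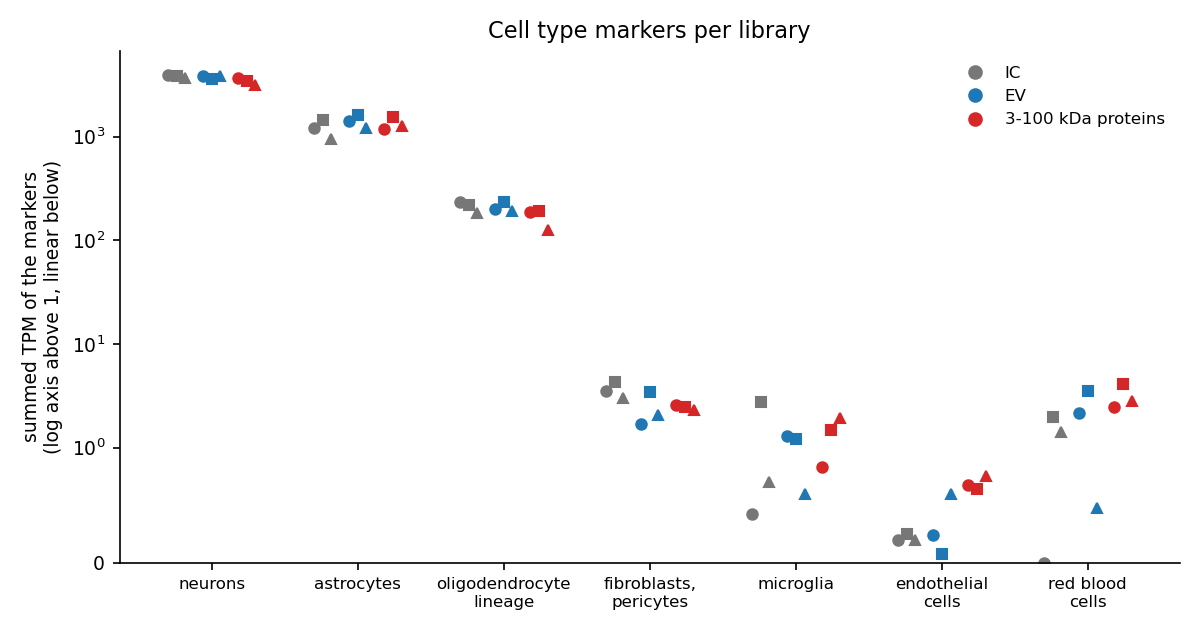
The y axis shows the TPM of each marker list summed per library, on a log axis above 1 and a linear one below, for IC, EV and 3-100 kDa proteins (circle, square and triangle for replicates 1, 2 and 3). Neuronal markers lie between 3123 and 3911 TPM in these 9 libraries, and the lists of microglia, endothelial cells, fibroblasts and red blood cells at or below 4.278 TPM.

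The gene lists were chosen with earlier results of these data known, so counts from them carry no test. Secreted and synaptic products of active neurons formed the group with the lowest median, −1.05 over the 20 genes tested. Of these, 5 were lower in EV and none was higher without the block, and 12 were lower with it. Among all genes tested, 0.494% were lower without the block and 2.13% with it. The libraries of 16 of the 20 genes did not overlap, all of them lower in EV, against 6.78% of all genes in this direction and 7.4% in the other. Vgf, which encodes a neurosecretory protein and is listed in the files as LOC100909521, had the lowest p of the 58 called genes that are neither small RNAs nor unnamed loci. It stood at 54.6, 42 and 49.01 TPM in EV replicates 1, 2 and 3, at 300.2, 311 and 276 TPM after proteins and at 10.5, 10.2 and 11.02 TPM in IC. The groups were far apart, with EV several times above IC and proteins several times above EV. The difference of −2.62 ± 0.14 (limma adjusted p = 0.00204, 0.00216 with the block) kept an adjusted p under 0.05 without any 1 of the 6 libraries, at 0.0302 at most.

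Scg2, the precursor of secretoneurin, stood at 52.6, 46.7 and 51.4 TPM in EV and at 125, 187 and 156 TPM after proteins, a difference of −1.63 ± 0.18 (limma adjusted p = 0.0182). Its IC libraries held 55.6, 37.2 and 46.1 TPM, which overlapped EV, and the EV minus IC difference was 0.12 (adjusted p = 1). The neuronal pentraxins, secreted proteins that cluster AMPA receptors, were both lower in EV. Nptx2 was at 12.5, 18.5 and 14.6 TPM against 33.4, 39.2 and 37.3 TPM (difference −1.26 ± 0.17, limma adjusted p = 0.0342), and Nptx1 at 4.49, 4.2 and 5.11 TPM against 15.5, 18.2 and 10.9 TPM (−1.50 ± 0.20, limma adjusted p = 0.0342). The fifth was Rgs4, a GTPase activator that shortens signalling by G proteins (adjusted p = 0.0447). Outside the naming rule, and chosen after their values were seen, the dendritic immediate early gene Arc and the neurotrophin Bdnf passed only with the block. Arc was at 0.903, 1.83 and 1.5 TPM in EV against 5.69, 12.1 and 12.5 TPM (adjusted p = 0.0575 without the block and 0.00966 with it), and Bdnf at 4.01, 3.3 and 4.76 TPM against 10.5, 8.94 and 7.82 TPM (adjusted p = 0.119 and 0.0401).

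Vgf and Scg2 each hold the full cAMP response element (CRE, TGACGTCA, a palindrome) in the window from 250 bases before to 50 after the gene's start, and the immediate early gene Egr2 holds a CArG box, the site of serum response factor. These letters are the known sites of CREB and serum response factor, factors that ERK and calcium signals act on. The 3 windows were picked from the called genes of the activity and immediate early lists because they hold such a match. They are taken from RefSeq (assembly GRCr8), on the gene's strand, with the match in capitals. The CRE of Vgf lies 90 to 83 bases and that of Scg2 123 to 116 bases before the start, and the CArG box of Egr2 83 to 74 bases before it. The window of Vgf is chr12:25276971-25277270, that of Scg2 chr9:88256817-88257116 and that of Egr2 chr20:21054392-21054691, all on the minus strand.
Vgf: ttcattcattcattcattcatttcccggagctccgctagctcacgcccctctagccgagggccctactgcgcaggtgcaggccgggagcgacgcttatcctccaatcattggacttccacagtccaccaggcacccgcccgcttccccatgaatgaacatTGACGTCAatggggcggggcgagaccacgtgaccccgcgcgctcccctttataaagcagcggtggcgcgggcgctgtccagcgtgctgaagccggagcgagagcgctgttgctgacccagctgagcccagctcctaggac
Scg2: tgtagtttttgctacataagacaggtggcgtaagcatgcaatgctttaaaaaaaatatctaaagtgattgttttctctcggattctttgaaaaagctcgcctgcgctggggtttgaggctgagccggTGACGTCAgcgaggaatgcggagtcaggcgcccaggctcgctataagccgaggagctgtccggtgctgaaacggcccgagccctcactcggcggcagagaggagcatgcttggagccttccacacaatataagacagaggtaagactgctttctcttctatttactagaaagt
Egr2: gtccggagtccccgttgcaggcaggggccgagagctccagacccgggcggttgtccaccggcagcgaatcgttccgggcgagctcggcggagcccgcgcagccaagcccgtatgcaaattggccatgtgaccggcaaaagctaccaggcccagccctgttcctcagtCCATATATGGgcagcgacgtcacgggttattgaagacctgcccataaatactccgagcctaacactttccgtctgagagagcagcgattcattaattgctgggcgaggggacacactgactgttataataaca
Among the 33469 promoter windows of this length in the table, 1.83% hold the CRE and 1.64% a CArG box on either strand, and among the 8970 windows of genes tested here 3.34% and 1.23% do. A match is only a run of letters. Windows were matched for 43 of the 63 genes lower in EV, or 68.3%, which is too few for a comparison of motif shares between gene sets.

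Of 25 transcription factors and other products of the immediate early class tested, 4 were lower in EV and none was higher, 8 were lower with the block, and the median difference was −0.75. Over all genes tested the shares lower were 0.494% without the block and 2.13% with it. The zinc finger factor Egr2 stood at 0.455, 1.99 and 1.55 TPM in EV, at 14.2, 29.1 and 28.6 TPM after proteins and at 0.332, 0.269 and 0.48 TPM in IC. The EV libraries lay far closer to IC than to the proteins, and the difference to proteins was −3.44 ± 0.38 (limma adjusted p = 0.0182). Egr1 was at 24.04, 23.97 and 23.7 TPM in EV and at 67.2, 119 and 94.3 TPM after proteins (−1.91 ± 0.21, limma adjusted p = 0.0182), with 13.04, 11.8 and 9.94 TPM in IC. The AP-1 member Fosb was at 0.151, 0.094 and 0.343 TPM in EV, close to 0, and at 4.89, 7.25 and 7.88 TPM after proteins (−2.67 ± 0.26, limma adjusted p = 0.0135), and it passed the filter on low values only through the protein libraries.

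Fosl1, which encodes the AP-1 member FRA-1, differed from Egr2 and Fosb in that its EV level was clearly above IC. It was at 4.36, 5.42 and 5.55 TPM in EV and at 22.1, 29.8 and 35.5 TPM after proteins (−2.31 ± 0.23, limma adjusted p = 0.0145), and IC held 0, 0.138 and 0 TPM. The EV minus IC difference was 2.53 (adjusted p = 0.0154) and the proteins minus IC difference 4.84 (adjusted p = 0.000386), in fits that share the IC libraries. Fos and Junb, named after their values were seen, lay the other way. Fos was at 21.8, 19.4 and 15.3 TPM in EV and at 7.5, 11.2 and 13.04 TPM after proteins, and Junb at 15.4, 13.1 and 14.2 TPM and 8.15, 8.58 and 10.4 TPM. The libraries of neither gene overlapped, with EV higher, but neither passed (limma adjusted p = 0.373 and 0.378 without the block, 0.171 and 0.114 with it).

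Of 14 proteins that switch ERK and its receptors off, 4 were lower in EV without the block and 7 with it, none was higher in either fit, and the median difference was −0.82. Of all genes tested, 0.494% were lower without the block and 2.13% with it. Dusp6, the cytoplasmic phosphatase of ERK1/2, was at 15.6, 20.2 and 20.3 TPM in EV, at 39.02, 53.7 and 52.8 TPM after proteins and at 8.84, 8.05 and 8.54 TPM in IC (−1.35 ± 0.19, limma adjusted p = 0.0427). The 3 groups did not overlap and EV lay between the others. The nuclear phosphatase Dusp4 was at 36.1, 55.8 and 49.4 TPM against 107, 162 and 99.6 TPM (−1.38 ± 0.20, limma adjusted p = 0.0447), and the smaller dual-specificity phosphatase Dusp14 at 6.13, 7.79 and 7.88 TPM against 19.7, 25.2 and 21.5 TPM (−1.51 ± 0.17, limma adjusted p = 0.0194). Spry2, an inhibitor of receptor tyrosine kinase signalling, differed least of the 4, at 58.7, 61.02 and 62.5 TPM against 107, 124 and 124 TPM (−0.97 ± 0.13, limma adjusted p = 0.0387). Dusp4 lost its call on TPM without rescaling, and Dusp6 whichever 1 library was left out (adjusted p from 0.0527 to 0.261). Dusp4, Dusp14 and Spry2 each kept the call in only 1 of the 6 fits without 1 library. Phlda1, an immediate early gene of growth factor signalling that belongs to no list, was at 15.3, 16.4 and 19.3 TPM in EV and at 68.8, 85.6 and 108 TPM after proteins (−2.30 ± 0.22, limma adjusted p = 0.0135).

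**Figure D3:**
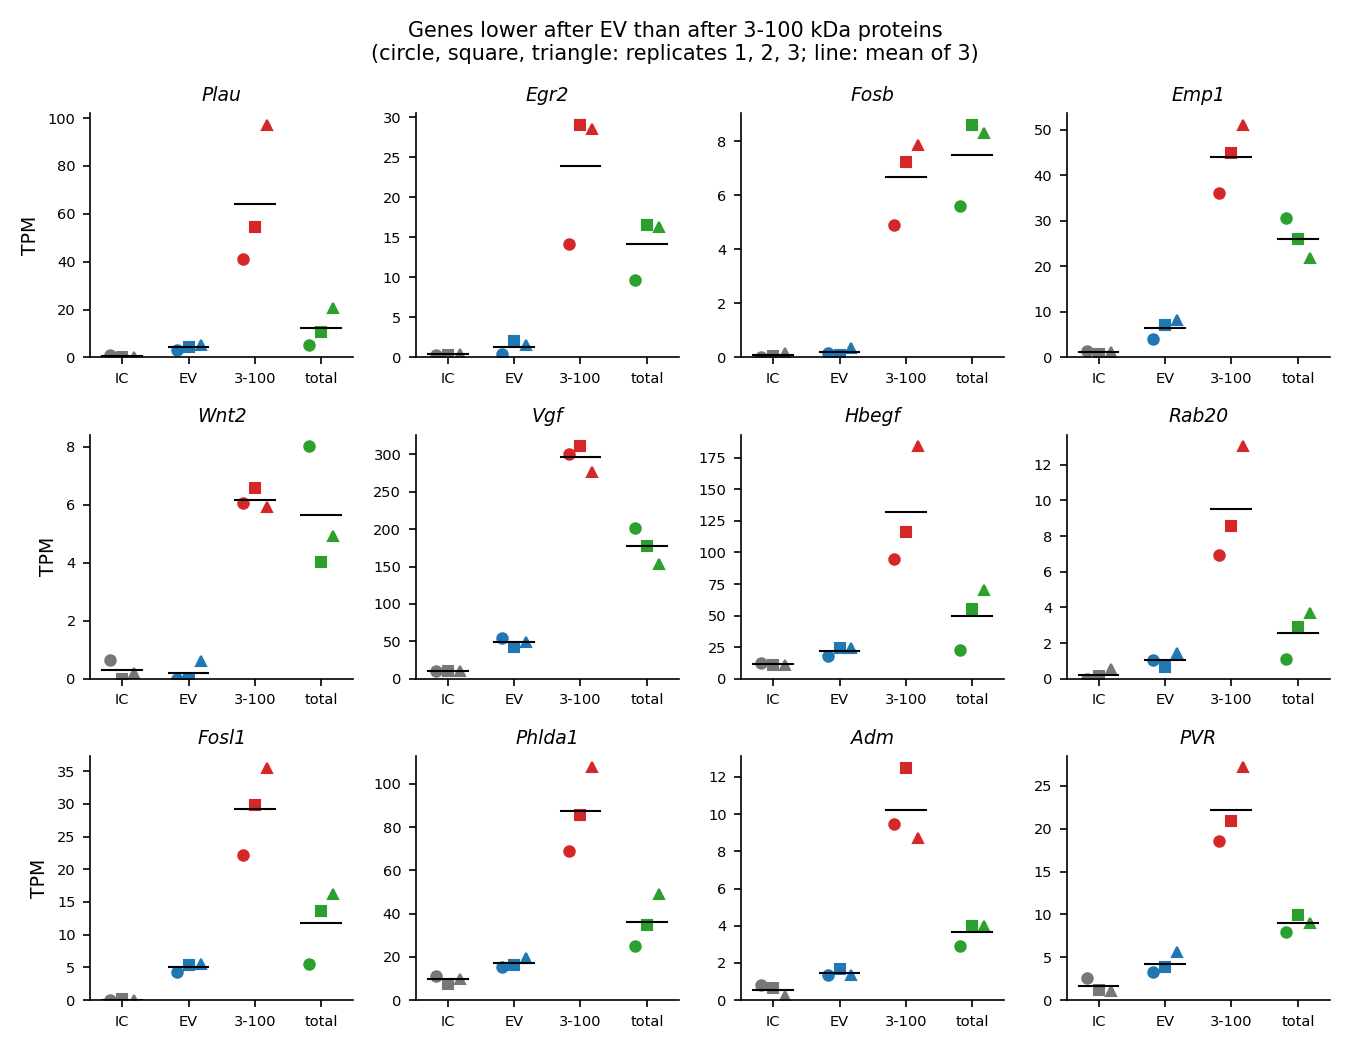
The 12 named genes with the largest negative difference on the log2(TPM + 1) scale among those called without the block, with TPM on the y axis and IC, EV, 3-100 kDa proteins (3-100) and total secretome (total) on the x axis. Each symbol is 1 library and the line the mean of 3. For each gene the 3 EV libraries lie below the 3 protein libraries, for Vgf at 42 to 54.6 against 276 to 311 TPM.

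Among ligands and their receptors 3 of 27 genes passed without the block, against 0.494% of all genes tested in this direction, and the medians of the lists were small (−0.14 over 8 genes of the EGF family, where 1 was lower, and −0.21 over 19 other growth factors and receptors, where 2 were lower without the block and 4 with it). Hbegf, a membrane-anchored ligand of the EGF receptor, was at 18.1, 24.4 and 23.98 TPM in EV, at 95.02, 116 and 185 TPM after proteins and at 12.4, 11.1 and 11.2 TPM in IC (−2.50 ± 0.29, limma adjusted p = 0.0215). Its highest EV library was far under its lowest protein library. Fgfr1, a receptor of fibroblast growth factors, was at 34.5, 47.6 and 42.1 TPM against 85.3, 126 and 111 TPM (−1.37 ± 0.19, limma adjusted p = 0.0379), and its EV and IC libraries (36.3, 34.1 and 31.4 TPM) overlapped. Pdgfb, a ligand of the platelet-derived growth factor receptors, was at 4.27, 4.17 and 4.7 TPM against 14.7, 14.8 and 9.2 TPM (−1.37 ± 0.20, limma adjusted p = 0.0427), a call lost on TPM without rescaling and whichever 1 library was left out (adjusted p from 0.0594 to 0.279).

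Further genes of secreted factors were lower in EV. The Wnt ligand gene Wnt2 was listed at 0, 0 and 0.611 TPM in EV and at 6.05, 6.56 and 5.91 TPM after proteins (−2.62 ± 0.26, limma adjusted p = 0.0135), a call lost with a pseudocount of 0.1. Adm, which encodes the vasoactive peptide adrenomedullin, was at 1.34, 1.66 and 1.36 TPM against 9.48, 12.5 and 8.7 TPM (−2.20 ± 0.19, limma adjusted p = 0.0127). Both genes were low and EV lay near the IC libraries, which were at 0.654, 0 and 0.21 TPM for Wnt2 and 0.831, 0.675 and 0.2 TPM for Adm. Clcf1, a cytokine of the CNTF receptor, was at 0.557, 0.555 and 0.568 TPM against 3.7, 4.81 and 7.38 TPM (−1.99 ± 0.29, limma adjusted p = 0.0427), a call lost in each of the 3 fits without 1 EV library (adjusted p from 0.0638 to 0.181). Wnt2 and Clcf1 passed the filter on low values only through the protein libraries, and could not be tested without one of those. Of the 16 genes of the gp130 and STAT3 axis tested, a list without Clcf1, none passed without the block, the median was 0.05, and the 1 that passed with it, Cebpd, was higher in EV.

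Plau, the urokinase that activates plasminogen at the cell surface, was at 3.14, 4.24 and 5 TPM in EV, at 41.1, 54.4 and 97.1 TPM after proteins and at 0.891, 0 and 0.287 TPM in IC (−3.62 ± 0.36, limma adjusted p = 0.0135, a ratio of the group means of 15.6). It was the only one of 12 tested genes of plasminogen activation and protease inhibition to pass without the block. With the block, which called 2.13% of all genes tested lower, 6 passed, all lower in EV. They included the urokinase receptor Plaur at 0.574, 1.05 and 2.01 TPM against 3.57, 4.38 and 10.9 TPM (adjusted p = 0.0226 with the block and 0.271 without) and Timp1, an inhibitor of matrix metalloproteinases, at 101, 125 and 95.4 TPM against 218, 200.1 and 259.9 TPM (0.0318 and 0.0608). The urokinase and its receptor were thus lower in the same libraries, the latter with the block alone. For Timp1 the EV level was itself above IC, at 9.24, 19.7 and 8.9 TPM, with an EV minus IC difference of 3.06 (adjusted p = 0.0154).

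Genes of reactive astrocytes had a median of −0.98 over the 12 tested, with 3 lower in EV without the block and 6 with it. Among all genes tested, 0.494% were lower without the block and 2.13% with it. Emp1, a tetraspan membrane protein related to PMP22, was at 4.01, 6.997 and 8.14 TPM in EV, 36.1, 44.9 and 51.04 TPM after proteins and 1.43, 0.664 and 1.18 TPM in IC (−2.66 ± 0.27, limma adjusted p = 0.0145). S100a10, the partner of annexin A2 that binds plasminogen, was at 121, 134 and 101 TPM against 327, 324 and 357 TPM (−1.53 ± 0.15, limma adjusted p = 0.0135). The third was Clcf1, and none of the 7 general astrocyte markers passed. Gfap overlapped, at 491, 617 and 362 TPM in EV and 242, 447 and 310.3 TPM after proteins, both with wide spread. Tnfrsf12a, the receptor of the cytokine TWEAK, was at 29.3, 36.4 and 22.3 TPM against 88.6, 94.4 and 99.9 TPM (−1.70 ± 0.18, limma adjusted p = 0.0182), and its IC libraries were at 0.953, 3.1 and 1.22 TPM. It was the 1 gene of 8 tested in the TNF receptor family that passed.

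Of 14 annexin, S100, galectin and caveolin genes, which encode membrane-binding proteins, 4 were lower in EV without the block and 6 with it, and the median was −0.78. For this list and the next ones, the shares lower among all genes tested were 0.494% without the block and 2.13% with it. Cav1, the coat protein of caveolae, was at 9.64, 12 and 10.9 TPM in EV and 34.5, 44.2 and 33.8 TPM after proteins (−1.72 ± 0.15, limma adjusted p = 0.0127), while its IC libraries, at 10.4, 6.81 and 8.31 TPM, overlapped EV. Lgals3, or galectin-3, was at 24.8, 19.3 and 17.5 TPM against 69.2, 63.6 and 78.4 TPM (−1.76 ± 0.20, limma adjusted p = 0.0182), and Anxa2 at 8.87, 13.2 and 9.01 TPM against 33.9, 30.7 and 24.8 TPM (−1.48 ± 0.17, limma adjusted p = 0.0223). Of 25 genes of actin and the SRF and YAP programmes, 2 were lower without the block and 8 with it, where 1 was higher. The actin crosslinker Actn1 was at 30.4, 34.5 and 31.97 TPM against 69.9, 83.9 and 85.3 TPM (−1.30 ± 0.15, limma adjusted p = 0.0182). The focal adhesion protein Zyx was at 19.96, 19.3 and 18.6 TPM against 34.5, 43.7 and 38.6 TPM (−1.0 ± 0.14, limma adjusted p = 0.0427), a call lost on TPM without rescaling. The 1 higher gene was Amotl2, at 25.4, 22.5 and 23.5 TPM against 16.1, 12.4 and 11.8 TPM (adjusted p = 0.0262 with the block), named after its values were seen. Of 25 integrin, matrix and adhesion genes, none passed without the block and 5 were lower with it, among them the hyaluronan receptor Cd44 at 22.3, 49.98 and 38.97 TPM against 63.5, 98.7 and 104 TPM (adjusted p = 0.00941 with the block and 0.217 without).

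**Figure D4:**
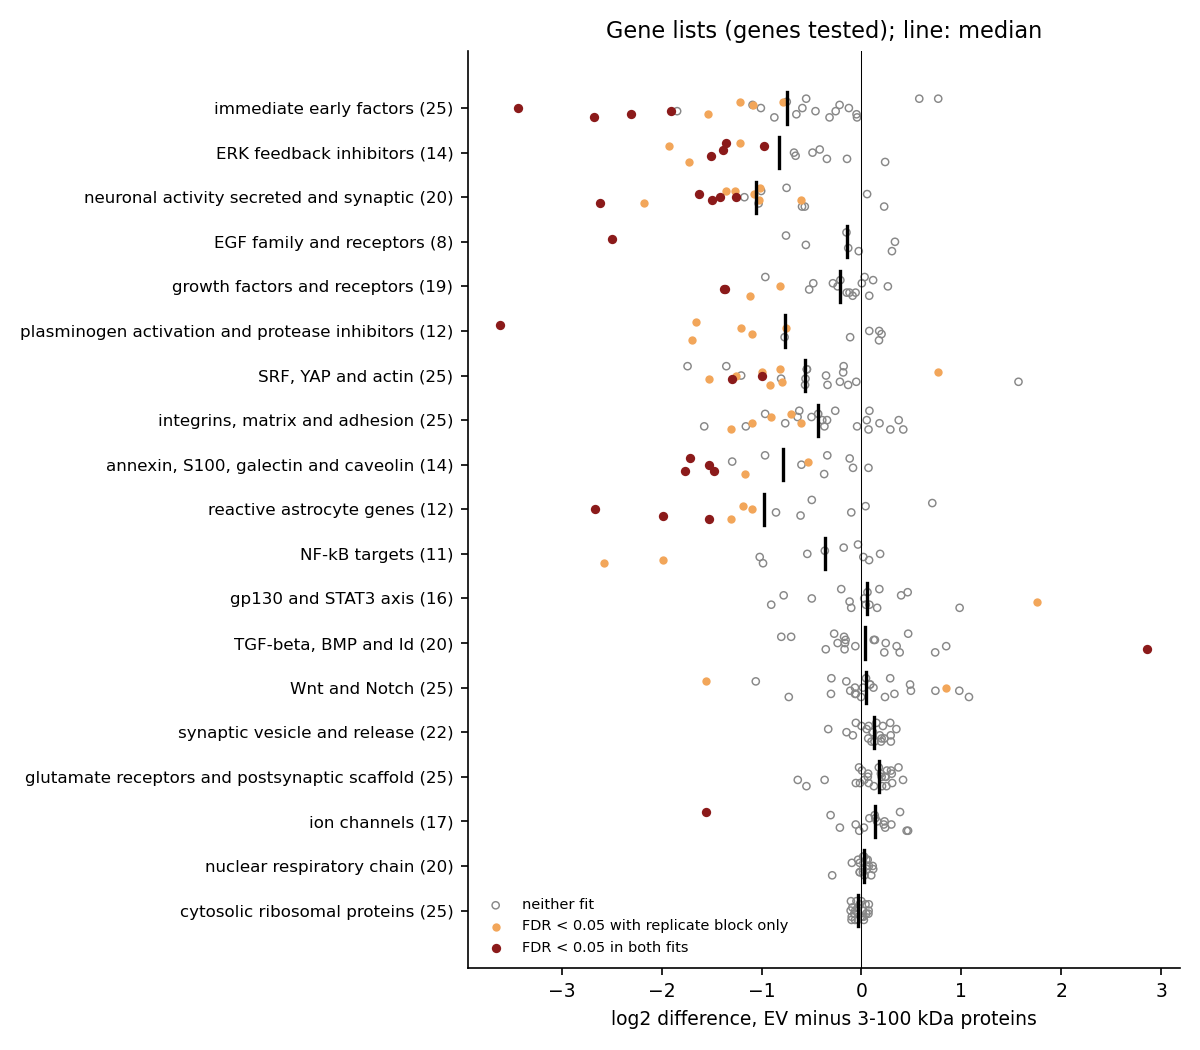
Each point is 1 tested gene of a list, with the log2 difference, EV minus 3-100 kDa proteins, on the x axis and the number of genes tested in brackets. The black line is the median, which lies at −1.05 for the activity-regulated secreted and synaptic genes and at −0.03 for ribosomal proteins.

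Genes of growth and survival passed singly. Hmga1, an architectural chromatin protein of proliferating cells, was at 148, 155 and 112 TPM in EV, 459, 483 and 443 TPM after proteins and 69.2, 89.1 and 70.9 TPM in IC (−1.77 ± 0.14, limma adjusted p = 0.0105). The cell cycle gene Ccnd1, an early target of ERK, was at 60.02, 88.6 and 65.7 TPM against 158, 211 and 182 TPM (−1.39 ± 0.17, limma adjusted p = 0.0244), the only one of 24 cell cycle and replication genes to pass without the block. Pmaip1, the proapoptotic NOXA, was at 1.17, 1.23 and 0.549 TPM against 7.62, 8.14 and 7.32 TPM (−2.17 ± 0.21, limma adjusted p = 0.0135), the only one of 15 genes of the Bcl2 family and p53 targets to do so. The hypoxia list had 2 of 26 genes lower, Adm and Ndrg1, with a median of −0.08. Ndrg1 was at 124, 103 and 119 TPM against 253, 232 and 198 TPM (−1.0 ± 0.14, limma adjusted p = 0.0387). The remaining genes chosen by size were Rab20, a GTPase of endosomes, at 1.07, 0.663 and 1.45 TPM against 6.92, 8.58 and 13.03 TPM, and PVR, the poliovirus receptor, at 3.27, 3.92 and 5.59 TPM against 18.5, 20.8 and 27.2 TPM (limma adjusted p = 0.0342 and 0.0235).

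Of the inflammatory genes, 11 targets of NF-kB could be tested and none passed without the block. Ccl2 and Ccl7, chemokines that attract monocytes, were lower in EV with it. Ccl2 was at 4.2, 46.3 and 18.7 TPM in EV, 78.1, 154 and 78.5 TPM after proteins and 0.378, 0 and 0 TPM in IC (adjusted p = 0.0341 with the block and 0.277 without). The spread among the EV libraries was wide and EV replicate 1 lay closest to IC. Ccl7 was at 1.71, 5.5 and 4.49 TPM against 12.6, 27.2 and 13.97 TPM (adjusted p = 0.00922 and 0.118). None of 11 interferon response genes tested passed in either fit.

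Fewer genes were higher in EV. Id3, an inhibitor of basic helix-loop-helix factors, was at 11.7, 11.04 and 9.02 TPM in EV and at 0, 0.478 and 1.49 TPM after proteins (2.86 ± 0.36, limma adjusted p = 0.0274), with 5.73, 9.3 and 2.62 TPM in IC. The call was lost with a pseudocount of 0.1. It was the only one of 20 TGF-beta, BMP and Id genes to pass, and the median of the list was 0.03. Mycl, the L-Myc member of the MYC family, was at 32.7, 28.3 and 24.9 TPM in EV, 9.35, 8.63 and 8.51 TPM after proteins and 36.7, 36.97 and 31.9 TPM in IC (1.56 ± 0.16, limma adjusted p = 0.0153). For Mycl the EV libraries were near IC and it was the proteins that lay apart, with an EV minus IC difference of −0.30 (adjusted p = 1) and a proteins minus IC difference of −1.85 (adjusted p = 0.00131), in fits that share the IC libraries. The remaining 3 of the 5 higher genes were a small RNA and 2 unnamed loci.

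The rule filled the higher genes up by the unadjusted p, and the 9 genes added that are described here passed with the block and not without it. Cebpd, a transcription factor of the acute phase response, was at 15.8, 11.6 and 8.03 TPM in EV, 2.1, 3.3 and 2.57 TPM after proteins and 1.82, 3.81 and 0.502 TPM in IC (difference 1.76 ± 0.27, adjusted p = 0.0331 with the block and 0.0575 without). For Cebpd each EV library lay above each IC and protein library, and the total secretome libraries, at 6.62, 5.48 and 7.63 TPM, lay between them. For 7 of the other 8 the EV and IC libraries overlapped, and for Dll1 the EV libraries lay between IC and proteins. The Notch ligand Dll1 was at 10.3, 10.4 and 8.8 TPM against 5.06, 5.45 and 4.34 TPM (adjusted p = 0.0417 with the block), and the neuronal factor Bhlhe22 at 69, 87.1 and 94.8 TPM against 35.6, 33.1 and 40.6 TPM (0.00798). Pik3ip1, an inhibitor of PI3 kinase, was at 12.5, 11.02 and 9.37 TPM in EV, 4.65, 4.51 and 2.95 TPM after proteins and 17.2, 18.6 and 12.1 TPM in IC (0.018). The Wnt regulator Dact1 was at 32.7, 33.7 and 32.9 TPM against 18.6, 20.4 and 13.8 TPM (0.0251), the kinase Map2k6, an activator of p38, at 22.03, 21.9 and 20.4 TPM against 10.6, 13.5 and 11.1 TPM (0.039), and the factor Klf7 at 38.4, 55.2 and 59.4 TPM against 25.6, 22.1 and 24.9 TPM (0.0279). The last 2 were Mxd1 and Mnt of the MYC network.

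**Figure D5:**
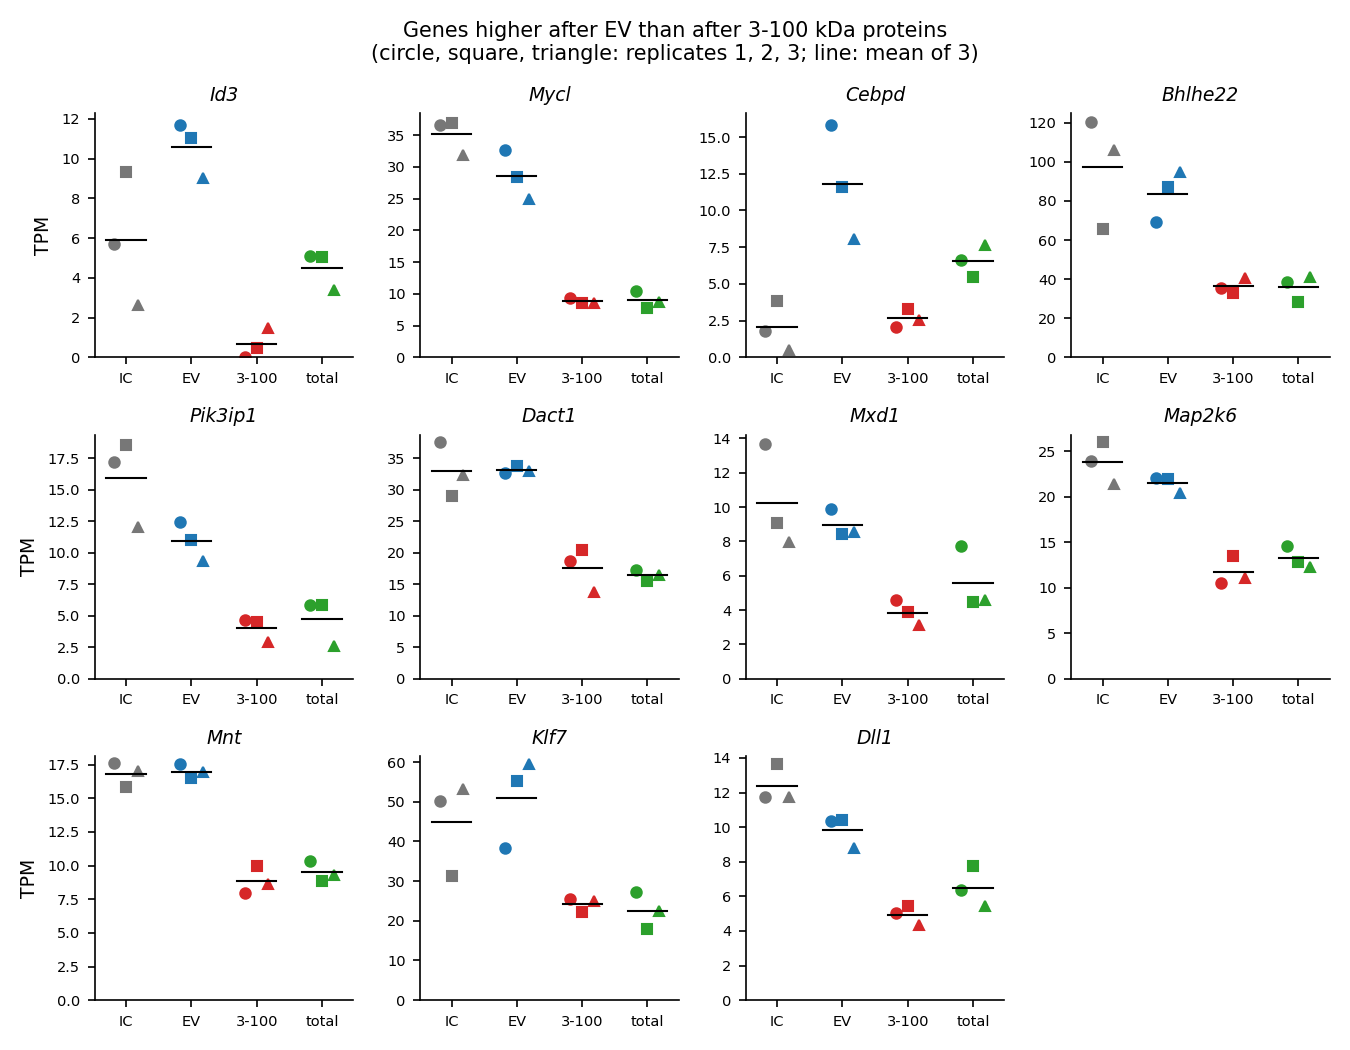
The 11 genes described as higher in EV, with TPM on the y axis and IC, EV, 3-100 kDa proteins (3-100) and total secretome (total) on the x axis. Each symbol is 1 library and the line the mean of 3. The EV libraries lie above the protein libraries for each gene, for Mycl at 24.9 to 32.7 against 8.51 to 9.35 TPM.

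None of 22 genes of synaptic vesicles and release, 25 of glutamate receptors and their scaffold, or 17 of calcium pumps, exchangers and stores passed in either fit, with medians of 0.12, 0.17 and 0.04. Of 17 ion channels, the potassium channel Kcna1 alone passed, at 3.15, 3.54 and 4.88 TPM in EV against 10.8, 15.2 and 12.99 TPM after proteins (−1.55 ± 0.22, limma adjusted p = 0.0427), and its call was lost whichever 1 library was left out. None of 20 respiratory chain genes, 11 mitochondrially encoded genes, 25 ribosomal proteins, 9 metallothionein and metal genes or 18 genes of autophagy and lysosome passed either, and their medians lay between −0.19 and 0.05. Of 23 cholesterol synthesis genes, 2 were lower with the block (Idi1 and Msmo1), and of 18 genes of fatty acid synthesis and lipid export none passed. Of 25 Wnt and Notch genes, which did not include Wnt2, Dll1 was higher and Lef1 lower with the block, and Lef1 passed the filter only through the protein libraries.

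Lists of stress, trafficking and differentiation held no gene that passed without the block, and few with it. Of 23 genes of the unfolded protein and amino acid response, Ddit4, an inhibitor of mTORC1, was higher, at 47.4, 41.2 and 33.6 TPM in EV, 25.1, 14.5 and 18.5 TPM after proteins and 70.1, 69.2 and 46.2 TPM in IC (adjusted p = 0.0319 with the block). Of 20 antioxidant genes, Srxn1 and Gclc were lower, and of 17 heat shock genes Hspa4l was lower. Srxn1, which restores oxidised peroxiredoxins, was at 2.07, 6.65 and 5.003 TPM against 7.58, 18.7 and 17.96 TPM (adjusted p = 0.0108 with the block and 0.31 without). Of 9 glucocorticoid targets, Errfi1 and Cdkn1a were lower, 2 genes that growth factors also induce. Cdkn1a, the cell cycle inhibitor p21, was at 17.2, 24.3 and 26.6 TPM against 48.99, 80.9 and 74.6 TPM (adjusted p = 0.00395 with the block and 0.0616 without). Of 23 genes of endocytosis, tetraspanins and ESCRT, Cd63 and Sdcbp, both common constituents of exosomes, were lower in EV. Cd63 was at 296, 211 and 175 TPM against 416, 378 and 340.1 TPM (adjusted p = 0.0437 with the block). Of 32 axon guidance genes, Epha4 was higher and Sema3c lower, of 7 genes of oligodendrocyte maturation Gpr17 was higher, and of 3 microglial activation genes Lyz2 was lower.

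Of the 68 genes, 6 were listed at 0 throughout a group, and no fold is given for them, because the ribosomal protein gene Rps6 was listed at 0 in all 12 libraries. The ultraconserved element uc_338 was at 0 in the 3 EV libraries, at 8.89, 12.3 and 15.8 TPM after proteins and at 4.97, 3.97 and 0 TPM in IC. The small nucleolar RNA SNORA69 went the other way, at 8.65, 10.1 and 8.04 TPM in EV and 0 in the 3 protein libraries. Since IC held SNORA69 at 0, 7.26 and 0 TPM, replicates of 1 group were themselves divided.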

How the data were processed

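The series holds mRNA libraries of rat cortical neuroglial cultures, 3 per group. By the paper's account, the authors used FastQC for quality control, Trimmomatic and Cutadapt for trimming, Salmon for quantification (Ensembl rn6 transcripts, genome decoy; Rnor_6.0 in the submitters' processing notes) and tximport for summing to genes. The deposited values sum to 1000000 per library and were taken as the TPM the authors obtained. TPM keeps no depth, so no counting interval was computed and precision rests on the 3 libraries per group. The labels name a DNBSEQ strand-specific library, and the paper another kit and instrument.

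Rows of 1 gene name were summed (32285 rows, 28111 names), and TPM was rescaled by median-of-ratios factors (0.909 to 1.07). A gene was kept if 3 or more of the 6 libraries reached 1 TPM. log2(TPM + 1) was fitted with limma 3.58.1 (R 4.3.3; lmFit, then eBayes with a trend) and adjusted by Benjamini-Hochberg over all genes tested. The same settings gave the comparisons with IC. The study's stated count test was not used on TPM. The fit was tested on simulated data for this comparison (12590 genes) and recovered 36% of changes of 1 and 84% of changes of 2 on the log2 scale, with 6 false calls in that simulation. Changes were planted only in genes above a set mean level, so these shares do not cover the lowest genes. The simulated noise held no replicate pairing.

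The labels number libraries 1 to 3 in each group. Deviations from the group means correlated at r = 0.589, 0.287 and 0.3 over genes for same-numbered EV and protein libraries, so the numbers were read as pairing them, from the data, and both fits are given. The study's supplement names a day covariate for a plot of IC and EV, and which libraries share a day is not given in the sources used here. EV replicate 3 correlated equally (0.3) with proteins replicate 2. Members and the 45 gene lists were chosen with earlier results of these data known. The genes named are the 12 largest differences in each direction among called genes whose libraries do not overlap (small RNAs and unnamed loci apart, at most 3; filled up by p under 0.05 and a fold over 1.5), up to 4 members of lowest p per list with a call, the leading genes of the blocked fit and the cell markers. Of these, 2 genes are not reported here. Vgf was matched to LOC100909521 through its Entrez number, 29461. Promoters are from RefSeq, GRCr8. Alternatives varied scaling, pseudocount, filter, block, libraries and variance model.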

Additional observations from a re-analysis of the deposited data

How the results depend on the processing

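The count of 68 genes at an adjusted p under 0.05 became 43 without a filter on low values, 183 when all 12 libraries shared 1 fit and 341 with the replicate block, and ranged from 2 to 72 when 1 library was left out. It lay between 49 and 69 under the other alternatives. Every one of the 68 genes that could be tested kept its direction under each alternative, as their lack of overlap largely fixed in advance. The 655 genes at p under 0.05 and a fold over 1.5 became 435 with a mean of at least 5 TPM and ranged from 510 to 857 with 1 library left out. The 341 genes of the blocked fit ranged from 203 to 422 without 1 pair, an alternative chosen after seeing the data. No named gene changed sign. Over the named genes and all alternatives, 1170 results stayed on their side of the threshold, 210 lost the call and 75 gained it, 42 of the latter with the block. The absence of a filter on low values ended 14 calls of named genes, Id3, Dusp4, Dusp6, Spry2, Zyx and Pdgfb among them, and the absence of a mean-variance trend ended 7. The block ended no call of the 68. Of the medians of gene lists, 531 moved by less than the spread between pairs and 90 by more, and 40 changed sign, all of lists whose main median was at most 0.158 in size. The depth is unknown, so the limit it sets on low genes is unknown too, and with 3 libraries against 3 an exact permutation test of a single gene could not go below p = 0.1.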

Other observations

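The MYC network was examined as a list after Mycl, Mxd1 and Mnt had been seen, so it carries no test. MYC proteins and the MXD and MNT repressors compete for the partner MAX. Of 11 genes tested, 1 was higher in EV without the block and 4 with it, none was lower, and the median was 0.35. Mxd1 was at 9.91, 8.44 and 8.55 TPM in EV, 4.59, 3.87 and 3.11 TPM after proteins and 13.7, 9.08 and 7.99 TPM in IC. Mnt was at 17.5, 16.5 and 16.9 TPM, 7.998, 9.99 and 8.66 TPM and 17.6, 15.8 and 17.03 TPM, and Mxd4 at 31.1, 23.3 and 20.4 TPM, 15.7, 13.4 and 12.5 TPM and 32.5, 41.98 and 28.3 TPM. For all 3 genes EV and IC overlapped, and each protein library lay below each EV library. Myc itself lay the other way, with a difference of −0.55 ± 0.19 (limma adjusted p = 0.374).

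The unnamed locus LOC100361811 was at 524, 421 and 346 TPM in EV and 50.95, 60.6 and 45.5 TPM after proteins (2.98 ± 0.17, limma adjusted p = 0.00204), and kept its call whichever 1 library was left out. IC libraries held 48.7, 68.9 and 37.2 TPM. After the total secretome the locus was at 420.1, 49.8 and 47.2 TPM, so replicate 1 of that group alone stood at the EV level. SNORA69 was likewise above 0 in that library, at 15.96, 0 and 0 TPM in the 3 total secretome libraries.

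For several genes lower in EV the total secretome libraries, at the highest dose, lay below the protein libraries without overlap. Plau was at 5.04, 10.7 and 20.5 TPM, Hbegf at 23.2, 54.9 and 69.9 TPM and Fosl1 at 5.59, 13.7 and 16.2 TPM after the total secretome. Fosb, at 5.61, 8.61 and 8.32 TPM, overlapped the proteins. Mycl, at 10.4, 7.8 and 8.72 TPM, also overlapped the proteins. These differences were not tested.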
